A study of Homo sapiens with 8 samples.

Results

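The genes described here are 10 targets of the ATF6 and XBP1 branches of the unfolded protein response: HSPA5, HSP90B1, PDIA4, SDF2L1, CRELD2, MANF, HERPUD1, EDEM1, DNAJB9 and XBP1. They were taken by name from a table of RNA counts of 37441 genes, in which each of the 10 had 1 Ensembl identifier, and all 10 passed the filter of at least 10 counts in total that left 18203 genes for testing. The rule used no measured value, but these genes and the lists set beside them were chosen with earlier results of these data known. The question was whether these genes move with resistance to an FGFR inhibitor in the way that ATF4 and its targets do, since ATF4 can be raised by stress in the endoplasmic reticulum (ER) and by other stresses as well.

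The RNA came from NCI-H1581 and NCI-H1703, established cell lines from NSCLC (lung cancer other than the small cell type) whose growth the FGFR inhibitor CPL304110 restrains, and from the resistant variants NCI-H1581R and NCI-H1703R. Both variants had been selected over 4 to 6 months in CPL304110 that started at 50 nM and ended at 2.5 µM for NCI-H1581R and at 5 µM for NCI-H1703R. They are selected populations, 1 selection per line, and no drug-treated sensitive cells were sequenced. NCI-H1581 was grown in DMEM/F12 and NCI-H1703 in RPMI 1640, so the lines differ in medium as well as in origin. Cells were harvested 24 h after fresh medium was given, and the sources used here do not say whether that medium held the inhibitor. Each of the 4 groups had 2 replicates, each from a repeat of the culture, which gave 8 libraries of 33800389 to 40031710 counts.

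In the unfolded protein response, misfolded protein in the ER lumen draws the chaperone HSPA5 (BiP) away from 3 sensors in the ER membrane. The sensor IRE1, encoded by ERN1, splices the XBP1 messenger RNA into the form that encodes an active transcription factor, and ATF6 is cut in the Golgi to release a factor of its own. Together they raise chaperones, folding enzymes and the machinery that returns misfolded protein to the cytosol for degradation (ER-associated degradation, ERAD). The sensor PERK, encoded by EIF2AK3, phosphorylates the translation factor eIF2α, which lowers general translation and favours that of ATF4. Other kinases, which sense amino acid shortage, haem or viral RNA, phosphorylate the same factor, so ATF4 targets can rise without the ATF6 and XBP1 branches.

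The element through which ATF6 is known to act is the ER stress response element (ERSE), which is CCAAT followed 9 bases later by CCACG. In ERSE-II, ATTGG and CCACG are separated by 1 base. Exact matches on either strand were sought in RefSeq promoter windows (GRCh38.p14) from 250 bases before to 50 after each annotated start, counted as position 0. All 10 genes had such a window. ERSE was found in 4 of the 10 (HSPA5, HSP90B1, CRELD2 and XBP1) and in 0.0916% of all 27305 genes with a window. ERSE-II was found in SDF2L1 and HERPUD1 and in 0.0696% of all genes. The CCAAT box alone, which is part of both elements, was present in 10 of 10 genes and in 39.7% of all genes. The 10 were chosen as known targets of these branches, so these shares carry no test.

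The matches are shown because they are the exact ERSE and ERSE-II elements found in these windows, in 6 of the 10 genes. Each line runs 5′ to 3′ along the gene's own strand with 5 bases on either side, and the capitals mark both parts of an element, CCAAT or its reverse complement ATTGG and CCACG or its reverse complement CGTGG.
HSPA5 ERSE, chr9:125241386-125241414, minus strand: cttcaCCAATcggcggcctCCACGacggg
HSP90B1 distal ERSE, chr12:103930211-103930239, plus strand: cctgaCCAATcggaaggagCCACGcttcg
HSP90B1 proximal ERSE, chr12:103930316-103930344, plus strand: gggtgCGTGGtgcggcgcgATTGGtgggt
CRELD2 ERSE, chr22:49918549-49918577, plus strand: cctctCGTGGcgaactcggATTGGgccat
XBP1 ERSE, chr22:28800598-28800626, minus strand: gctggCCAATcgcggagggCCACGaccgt
SDF2L1 ERSE-II, chr22:21642109-21642129, plus strand: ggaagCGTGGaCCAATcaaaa
HERPUD1 ERSE-II, chr16:56932020-56932040, plus strand: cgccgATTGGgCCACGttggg

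The element of HSPA5 spans positions -66 to -48 from the start and that of XBP1 spans -52 to -34. HSP90B1 held an ERSE on each strand, at -194 to -176 and at -89 to -71. The stretch upstream of HSPA5, the most studied promoter of this response, is given whole from -250 to -40 (chr9:125241383-125241593, minus strand), with every CCAAT box, in either direction, and the CCACG of the ERSE in capitals.
HSPA5 upstream: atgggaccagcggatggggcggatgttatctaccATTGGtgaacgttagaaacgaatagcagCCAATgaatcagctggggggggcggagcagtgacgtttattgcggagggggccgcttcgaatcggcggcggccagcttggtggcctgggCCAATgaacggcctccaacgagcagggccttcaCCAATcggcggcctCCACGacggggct

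The XBP1-type element UPRE, searched as TGACGTGG, was in 0 of the 10 genes and in 0.927% of all genes with a window. The composite site bound by CHOP and ATF4, searched as TGATGNAA, was in 1 of the 10 (HERPUD1, -176 to -169) and in 4.46% of all genes. HERPUD1 was thus the only one of the 10 with exact matches of an ERSE type and of the CHOP-ATF4 site in its window. Among the 16 ATF4 targets with a window, the CHOP-ATF4 site was in 5 and ERSE in 0. DNAJB9, EDEM1, MANF and PDIA4 held CCAAT boxes without CCACG at the exact distance, which says only that these letters are not in this window.

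**Figure D1:**
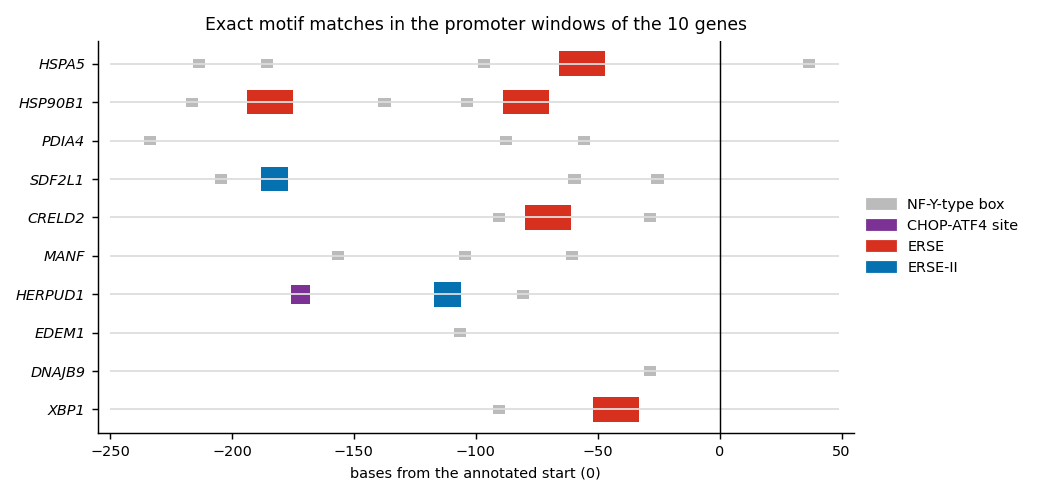
Positions of exact motif matches in the promoter windows of the 10 genes, with the distance in bases from the annotated start on the x axis and 1 row per gene (for PDIA4, the upstream of 2 windows). NF-Y-type boxes are the 5-base CCAAT boxes on either strand; ERSE lies in 4 genes, ERSE-II in 2 and the CHOP-ATF4 site in HERPUD1.

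On the transcript lengths used, HSP90B1 and HSPA5 stood far above the other 8 genes in every group. The length was 2782 bases for HSP90B1 and 3921 for HSPA5, where their longest annotated transcripts have 6609 and 5402 bases. A longer transcript gives a lower level per length. The distance of HSP90B1 from the genes below it, and its place ahead of HSPA5, therefore depend on this choice. Levels are given here as CPM, that is counts scaled to a common library size with TMM factors over the 8 libraries, per kilobase of transcript, the scale on which different genes can be compared. In NCI-H1581 the level was 270.0 ± 13.1 CPM per kb for HSP90B1 (SD, n = 2) and 231 ± 22.8 for HSPA5, against 66.9 ± 13.0 for SDF2L1, next in order. SDF2L1 could not be separated by its spread from PDIA4 at 58.3 ± 1.52 CPM per kb, nor PDIA4 from XBP1 at 58 ± 5.78. MANF and CRELD2 likewise overlapped, at 44.8 ± 6.64 and 44.4 ± 10.0 CPM per kb. EDEM1 and DNAJB9 closed the order at 2.15 ± 0.0238 and 2.05 ± 0.18 CPM per kb and overlapped as well.

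The order was similar in the other groups, with HSP90B1 and HSPA5 leading and EDEM1 and DNAJB9 last in all 4. XBP1 stood in the third place in NCI-H1581R, NCI-H1703 and NCI-H1703R. PDIA4 stood 4th in NCI-H1581 and 8th in NCI-H1703, where its level was 11.1 ± 0.963 CPM per kb. The 10 genes together took 0.209% and 0.208% of all counts in the 2 NCI-H1581 libraries, 0.118% and 0.147% in NCI-H1581R, 0.154% and 0.164% in NCI-H1703, and 0.167% and 0.164% in NCI-H1703R. Of these counts 70.3% to 79.5% belonged to HSPA5 and HSP90B1, so the summed share mainly follows those genes.

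**Figure D2:**
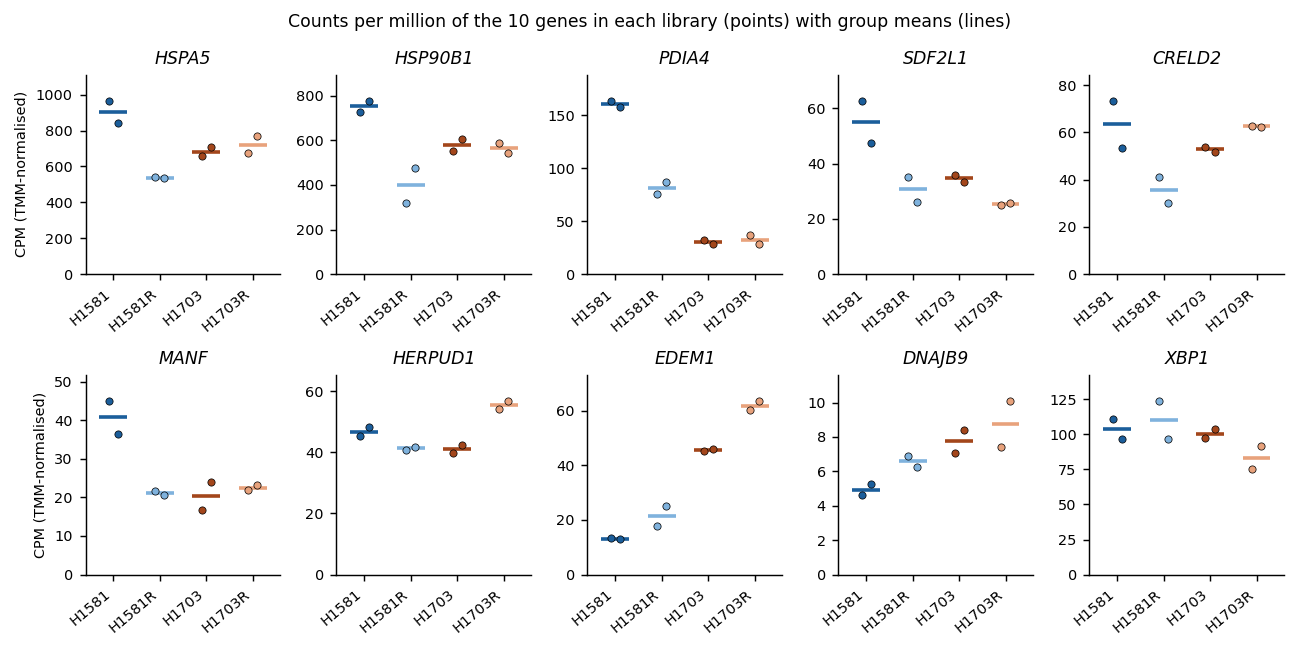
CPM of each gene (y axis from 0, TMM-normalised) in the 8 libraries, with points for libraries and lines for the means of 2 replicates. The 6 chaperones and folding factors of the lumen (HSPA5 to MANF) lie lower in both NCI-H1581R libraries than in both NCI-H1581 libraries, whereas EDEM1 lies higher in both resistant variants than in their sensitive lines. With 2 libraries per group such separation is weak evidence, and in NCI-H1581R the uncalled HERPUD1, DNAJB9 and EDEM1 show it as well.

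In NCI-H1581R the genes of the folding machinery were lower than in NCI-H1581, and none of the 10 was called higher. The test was edgeR's quasi-likelihood test on each line's own 4 libraries, with p-values adjusted over all 18203 genes and a call made under 0.1. By this test 6 of 10 genes fell and 0 rose, where 7.09% of all genes fell and 7.16% rose. All 6 are chaperones or folding factors of the ER lumen, and their log2 fold changes lay between -0.97 and -0.74. The 3 genes tied to ERAD and XBP1 itself were not called. The grouping by role was made with these values known and carries no test.

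HSPA5, the Hsp70 chaperone of the ER and the usual marker of ER stress, was measured at 967 and 841 CPM in NCI-H1581 and at 543 and 534 CPM in NCI-H1581R. Both resistant libraries were below both sensitive libraries, and the log2 fold change was -0.74 ± 0.19 (SE; edgeR adjusted p = 0.053), a level 60.0% of that in the sensitive line. HSP90B1 (GRP94), the Hsp90 of the ER, was measured at 727 and 778 CPM in NCI-H1581 and at 320.0 and 476 CPM in NCI-H1581R. It fell by 0.91 ± 0.24 on the log2 scale (edgeR adjusted p = 0.0627), with the widest spread between resistant replicates of these genes in CPM. Its exons share 805 of 13092 bases with UQCC6 on the opposite strand, and the strandedness of the counts is not given in the sources used here, so a part of its count is uncertain.

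PDIA4 (ERp72), a disulphide isomerase, was measured at 164 and 158 CPM in NCI-H1581 and at 76.2 and 87.5 CPM in NCI-H1581R. Its fall, -0.97 ± 0.17 in log2 with an edgeR adjusted p of 0.0134, was the deepest of the 10. MANF, a small luminal protein that binds HSPA5 and can be secreted under stress, was measured at 45.0 and 36.5 CPM before selection and at 21.7 and 20.7 CPM after it. The log2 fold change of MANF was -0.93 ± 0.18 (edgeR adjusted p = 0.0209).

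SDF2L1, which works with the co-chaperone DNAJB11 to keep proteins soluble in the lumen, was measured at 62.8 and 47.6 CPM in NCI-H1581 and at 35.2 and 26.1 CPM in NCI-H1581R. The resistant libraries again lay below the sensitive ones, with a log2 fold change of -0.84 ± 0.22 (edgeR adjusted p = 0.0609). CRELD2, an ER-resident protein with isomerase-like motifs, was measured at 73.5 and 53.3 CPM in NCI-H1581 and at 41.2 and 30.0 CPM in NCI-H1581R. Its log2 fold change was -0.82 ± 0.23 (edgeR adjusted p = 0.0752), the weakest of the 6 calls. With the replicate number as a block all 6 remained called, with edgeR adjusted p-values from 0.00261 for PDIA4 to 0.0294 for HSPA5. On simulated data that fit made more false calls than the test without the block. Those data held no deviation shared by same-numbered replicates, so they cannot tell how far its smaller p-values can be trusted here.

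The remaining 4 genes were not called. HERPUD1, a membrane scaffold of the HRD1 ubiquitin ligase in ERAD, was measured at 45.4 and 48.2 CPM in NCI-H1581 and at 40.9 and 41.8 CPM in NCI-H1581R, a log2 fold change of -0.17 ± 0.17 (edgeR adjusted p = 0.632). Its 2 ranges did not overlap, with both resistant libraries the lower, so with 2 libraries per group a gene that is not called can be separated too. The share of all genes separated in this way was not counted. EDEM1, a lectin that hands misfolded glycoproteins to degradation, was measured at 13.3 and 13.1 CPM in NCI-H1581 and at 17.8 and 25.3 CPM in NCI-H1581R. Its log2 fold change was 0.72 ± 0.24 and missed the threshold (edgeR adjusted p = 0.119). With the replicate block EDEM1 was called higher (0.70 ± 0.23, edgeR adjusted p = 0.0537), which makes 1 rise and 6 falls among the 10 where 9.38% of all genes rose and 8.94% fell.

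DNAJB9 (ERdj4), a co-chaperone of HSPA5 that takes part in ERAD and in holding IRE1 inactive, had few counts, 156 to 381 per library. It was measured at 4.63 and 5.24 CPM in NCI-H1581 and at 6.91 and 6.25 CPM in NCI-H1581R, a log2 fold change of 0.42 ± 0.29 (edgeR adjusted p = 0.47). XBP1, the transcription factor of the IRE1 branch, was measured at 111 and 96.6 CPM in NCI-H1581 and at 124 and 97.0 CPM in NCI-H1581R, and these ranges overlap. The XBP1 count sums the spliced and unspliced forms, so IRE1 activity cannot be read from it.

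The 6 falls depended on the sensitive replicates. Without NCI-H1581 replicate 1 no gene of the 10 was called (0 calls), and without NCI-H1581 replicate 2 there were 3 calls. Without NCI-H1581R replicate 1 there were 7 and without NCI-H1581R replicate 2 there were 6. Over all 18203 genes the calls went from 2593 with all libraries to 1608, 1662, 5069 and 4211 in these 4 fits. The median log2 fold change of the 10 lay between -0.85 and -0.62 in these 4 fits, against -0.78 with all libraries and 0.04 over all genes tested.

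In NCI-H1703R the same genes moved little and in more than one direction. By the same test 2 of 10 rose, both of them ERAD genes, and 1 fell, where 6.94% of all genes rose and 7.48% fell. The median log2 fold change was 0.15, against 0.0 for all genes.

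HERPUD1 was measured at 39.9 and 42.3 CPM in NCI-H1703 and at 54.2 and 56.9 CPM in NCI-H1703R. Both resistant libraries lay above both sensitive ones, a rise of 0.46 ± 0.10 in log2 (edgeR adjusted p = 0.038). EDEM1 was measured at 45.3 and 45.9 CPM in NCI-H1703 and at 60.2 and 63.7 CPM in NCI-H1703R, a rise of 0.47 ± 0.09 (edgeR adjusted p = 0.0294). SDF2L1 fell from 35.9 and 33.5 CPM to 25.2 and 25.8 CPM, by 0.41 ± 0.10 on the log2 scale (edgeR adjusted p = 0.0637), and was the only gene of the 10 called lower in both lines.

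The leading chaperones were near their level in the sensitive line. HSPA5 was measured at 658 and 707 CPM in NCI-H1703 and at 674 and 768 CPM in NCI-H1703R, overlapping ranges with a log2 fold change of 0.11 ± 0.12 (edgeR adjusted p = 0.686). HSP90B1 was measured at 552 and 608 CPM in NCI-H1703 and at 586 and 542 CPM in NCI-H1703R, a log2 fold change of -0.01 ± 0.12. PDIA4, at 32.6 and 28.9 CPM in NCI-H1703 and 37.3 and 28.1 CPM in NCI-H1703R, had a log2 fold change of 0.12 ± 0.16. MANF was measured at 16.7 and 23.9 CPM in NCI-H1703 and at 21.8 and 23.3 CPM in NCI-H1703R, and DNAJB9 at 7.08 and 8.43 CPM against 7.43 and 10.1 CPM. In each of these 5 genes the resistant and sensitive ranges overlap.

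CRELD2 and XBP1 were separated without overlap yet missed the threshold. CRELD2 was measured at 54.0 and 51.8 CPM in NCI-H1703 and at 62.9 and 62.3 CPM in NCI-H1703R (log2 fold change 0.27 ± 0.09, edgeR adjusted p = 0.122). XBP1 was measured at 97.3 and 104 CPM in NCI-H1703 and at 75.3 and 91.8 CPM in NCI-H1703R (log2 fold change -0.24 ± 0.12, edgeR adjusted p = 0.284). With the replicate block both were called, CRELD2 as higher (edgeR adjusted p = 0.00491) and XBP1 as lower (edgeR adjusted p = 0.00642). That fit gave 3 rises and 2 falls among the 10, where 18.6% of all genes rose and 16.9% fell.

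None of the 10 was called without NCI-H1703 replicate 1 or without NCI-H1703 replicate 2 (0 calls in each). There were 2 calls without NCI-H1703R replicate 1 and 3 without NCI-H1703R replicate 2. Over all genes the calls went from 2626 with all libraries to 738, 559, 2281 and 2197 in these 4 fits.

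**Figure D3:**
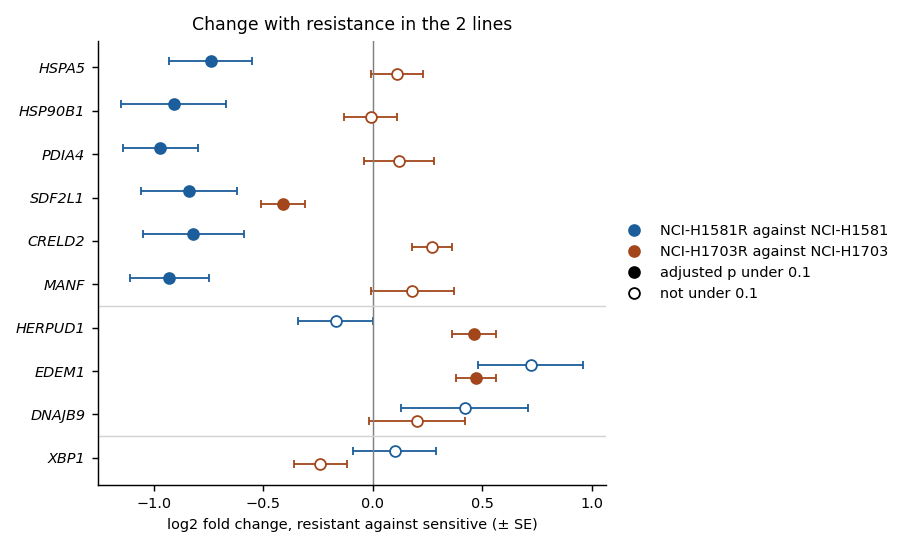
Log2 fold change of each gene with its standard error, NCI-H1581R against NCI-H1581 in blue and NCI-H1703R against NCI-H1703 in brown, with filled points for adjusted p under 0.1. The upper 6 genes, chaperones and folding factors of the lumen, sit between -0.97 and -0.74 in NCI-H1581R and between -0.41 and 0.27 in NCI-H1703R; the lower 4 are the ERAD genes and XBP1.

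The difference between the lines was tested as the interaction of line and variant over all 8 libraries. For 6 of 10 genes the change in NCI-H1703 was higher than that in NCI-H1581 and for 0 it was lower, where 7.28% of all genes were higher and 8.82% lower. The 6 were HSPA5, HSP90B1, PDIA4, CRELD2, MANF and HERPUD1, with differences in log2 fold change from 0.61 to 1.10. The largest belonged to MANF (1.10 ± 0.28, edgeR adjusted p = 0.0415), CRELD2 (1.07 ± 0.28, edgeR adjusted p = 0.0444) and PDIA4 (1.07 ± 0.23, edgeR adjusted p = 0.0207).

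HSPA5 differed by 0.83 ± 0.20 (edgeR adjusted p = 0.0327), HSP90B1 by 0.88 ± 0.27 (edgeR adjusted p = 0.0803) and HERPUD1 by 0.61 ± 0.16 (edgeR adjusted p = 0.049). For SDF2L1, which fell in both lines, the difference was 0.40 ± 0.27 and was not called. EDEM1 (-0.27 ± 0.24), DNAJB9 (-0.24 ± 0.35) and XBP1 (-0.36 ± 0.23) were not called either, which does not show that they changed alike. The 6 calls did not all hold when a library was left out. In those fits the median difference of the 10 genes lay between 0.63 and 0.80. With all libraries it was 0.72, against -0.08 over all genes.

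Before selection the lines already differed in these genes. In NCI-H1703 against NCI-H1581, 5 of 10 genes were lower and 2 higher, where 29.2% of all genes were lower and 30.8% higher, so a call was common in this comparison. PDIA4 showed the widest gap, 164 and 158 CPM in NCI-H1581 against 32.6 and 28.9 CPM in NCI-H1703, a log2 fold change of -2.39 ± 0.10 (edgeR adjusted p = 1.44e-06). MANF (-1.0 ± 0.20), SDF2L1 (-0.67 ± 0.15), HSPA5 (-0.40 ± 0.11) and HSP90B1 (-0.38 ± 0.11) were the other genes called lower in NCI-H1703. For SDF2L1, whose transcript has a GC content of 65.1%, the value was -0.03 once offsets for GC content and length were fitted.

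EDEM1 was 3.46-fold higher in NCI-H1703 than in NCI-H1581 (log2 fold change 1.79 ± 0.13, edgeR adjusted p = 1.84e-05). DNAJB9 was higher by 0.65 ± 0.26 in log2 (edgeR adjusted p = 0.0687), a call that ended with the replicate block (edgeR adjusted p = 0.1 after rounding). HERPUD1, CRELD2 and XBP1 were not called. Set beside the sensitive NCI-H1703, NCI-H1581R had a mean of 21.2 against 20.3 CPM for MANF and of 538 against 682 CPM for HSPA5. For PDIA4 the means stayed far apart, at 81.9 against 30.7 CPM, and for EDEM1 they were 21.5 against 45.6 CPM. This contrast was not tested.

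The upstream genes of the response were read beside these targets. ATF4 was measured at 203 and 221 CPM in NCI-H1581 and at 481 and 537 CPM in NCI-H1581R, a rise of 1.27 ± 0.19 in log2 (edgeR adjusted p = 0.00602). In NCI-H1703 and NCI-H1703R it was measured at 430.0 and 410.0 CPM and at 492 and 523 CPM, a log2 fold change of 0.30 ± 0.10 that was not called (edgeR adjusted p = 0.131) but was with the replicate block (edgeR adjusted p = 0.000472). The 2 changes differed by -0.99 ± 0.18 (edgeR adjusted p = 0.0103). In NCI-H1581R, ATF4 was thus higher while HSPA5 was lower.

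DDIT3 (CHOP), the transcription factor induced by ATF4, rose in both lines, from 16.4 and 12.3 to 25.7 and 42.7 CPM in NCI-H1581R and from 29.7 and 22.5 to 64.7 and 55.8 CPM in NCI-H1703R. Its log2 fold changes were 1.27 ± 0.28 (edgeR adjusted p = 0.0348) and 1.24 ± 0.16 (edgeR adjusted p = 0.0069), with a difference of -0.05 ± 0.37. ATF6 had log2 fold changes of -0.38 ± 0.17 in NCI-H1581R (edgeR adjusted p = 0.238) and 0.40 ± 0.09 in NCI-H1703R (edgeR adjusted p = 0.0538), and these differed by 0.75 ± 0.17 (edgeR adjusted p = 0.0254). The first of them was called lower once GC and length offsets were fitted (-0.68) and in the single fit of all 8 libraries (-0.39), and in that single fit the rise in NCI-H1703R was not called (0.37). The sensor genes ERN1 (0.52 ± 0.33 and 0.14 ± 0.12) and EIF2AK3 (-0.26 ± 0.33 and 0.25 ± 0.17) were not called in either line. Of the 10 sensors and transducers listed, 2 rose and 0 fell in NCI-H1581R, and 3 rose and 0 fell in NCI-H1703R (5 and 0 with the replicate block). Over all genes 7.16% rose in NCI-H1581R and 6.94% in NCI-H1703R (18.6% with the block).

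Further genes of ER folding were chosen by function. In NCI-H1581R 7 of 20 fell, 1 rose (ERO1B) and 12 were not called, with a median log2 fold change of -0.38 and values above 0 in 5 of the 20. With the replicate block 8 fell and 1 rose. The shares over all genes were 7.09% lower and 7.16% higher, and 8.94% and 9.38% with the block. PDIA6, a disulphide isomerase, had a log2 fold change of -1.07 ± 0.21 (edgeR adjusted p = 0.02), PPIB, the ER cyclophilin, -1.05 ± 0.23 (edgeR adjusted p = 0.0341), and CALR (calreticulin), the lectin chaperone, -0.91 ± 0.20 (edgeR adjusted p = 0.0323). CALR went from 1970.0 ± 194 CPM (SD, n = 2) in NCI-H1581 to 1040.0 ± 107 CPM in NCI-H1581R. An ERSE match lay in the promoter windows of 4 of the 19 folding genes with a window (PDIA6, CALR, CANX and ERO1B). Of these, PDIA6 and CALR fell in NCI-H1581R. ERO1B rose there (0.74 ± 0.22, edgeR adjusted p = 0.0951) and CANX was not called (-0.55 ± 0.20, edgeR adjusted p = 0.16).

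In NCI-H1703R, 5 of the 20 folding genes rose and 0 fell, with a median of 0.12 (8 and 1 with the replicate block). Among all genes 6.94% rose and 7.48% fell there (18.6% and 16.9% with the block). The 5 rises were led by ERO1B, a disulphide oxidase (0.57, edgeR adjusted p = 0.0572), DNAJC3, the PERK inhibitor P58IPK (0.55, edgeR adjusted p = 0.0408), and SDF2, the relative of SDF2L1 (0.49, edgeR adjusted p = 0.0439).

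Of 20 tested genes of ERAD and ER export, 2 fell and 0 rose in NCI-H1581R, with a median of -0.26 (3 and 0 with the replicate block). Over all genes 7.09% fell and 7.16% rose (8.94% and 9.38% with the block), so 2 falls of 20 lie near the common share. KDELR3, a receptor that returns KDEL-tailed chaperones such as HSPA5 to the ER, fell by 2.13 ± 0.26 on the log2 scale (edgeR adjusted p = 0.00254), from 51.2 ± 14.3 to 11.6 ± 2.52 CPM (SD, n = 2). SSR1, a subunit of the translocon-associated complex, had a log2 fold change of -0.81 ± 0.17 (edgeR adjusted p = 0.0297). In NCI-H1703R 2 rose and 0 fell (7 and 2 with the replicate block), where 6.94% of all genes rose and 7.48% fell (18.6% and 16.9% with the block). The 2 were SEL1L, the partner of the HRD1 ligase (0.48, edgeR adjusted p = 0.0202), and WFS1 (0.37, edgeR adjusted p = 0.0941).

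Of the ATF4 targets outside the ATF6 and XBP1 branches, 12 of 20 rose, 0 fell and 8 were not called in NCI-H1581R (13 and 0 with the replicate block). Their log2 fold change was above 0 in 18 of the 20, with a median log2 fold change of 1.26, beside -0.78 for the 10 ER genes and 0.04 for all genes. Among all genes 7.16% rose and 7.09% fell (9.38% and 8.94% with the block). ATF3 (3.54 ± 0.27, edgeR adjusted p = 0.000312), CHAC1, a glutathione-degrading enzyme (3.44 ± 0.18, edgeR adjusted p = 6.99e-05), and ALDH1L2, a mitochondrial folate enzyme (3.20 ± 0.49, edgeR adjusted p = 0.00745), changed most among those called. CHAC1 went from 9.56 ± 0.283 to 103 ± 7.95 CPM (SD, n = 2).

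In NCI-H1703R 9 of the 20 ATF4 targets rose and 1 fell, with a median of 0.49 (10 and 1 with the replicate block). The shares of all genes there were 6.94% and 7.48% (18.6% and 16.9% with the block). SLC7A11, the cystine transporter (1.37, edgeR adjusted p = 0.00136), and PCK2, the mitochondrial phosphoenolpyruvate carboxykinase (0.92, edgeR adjusted p = 0.0031), rose, whereas ATF5 fell by 0.94 on the log2 scale (edgeR adjusted p = 0.0034). In the interaction test 9 of the 20 were lower and 0 higher (11 and 0 with the replicate block within each line), the opposite direction to the 6 ER genes. Of all genes 8.82% were lower and 7.28% higher in that test without the block. With the block within each line, 1904 of all 18203 genes were lower and 1659 higher.

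Chaperones of the cytosol and mitochondria were the comparison outside the ER. In NCI-H1581R 1 of 14 tested fell and 0 rose, with a median of -0.02, the fall being HSPB1 (-1.04, edgeR adjusted p = 0.015). That count is near the 7.09% of all genes that fell. In NCI-H1703R 2 rose, HSPA9 (0.42, edgeR adjusted p = 0.0749) and BAG3 (0.33, edgeR adjusted p = 0.0828), and 1 fell, with a median of -0.10. There 6.94% of all genes rose and 7.48% fell. With the replicate block 2 of the 14 rose and 4 fell, where 18.6% of all genes rose and 16.9% fell. HSPH1 (-0.18, edgeR adjusted p = 0.0414), DNAJB1 (-0.19, edgeR adjusted p = 0.029) and DNAJA1 (-0.28, edgeR adjusted p = 0.00177) were then called lower too. The fall called without the block was HSPA1B, with 27 and 16 counts in NCI-H1703 and 0 in both NCI-H1703R libraries. Against a floor of 3 counts per library this was at least 7.62-fold lower, and its reads are shared with the near-identical HSPA1A.

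**Figure D4:**
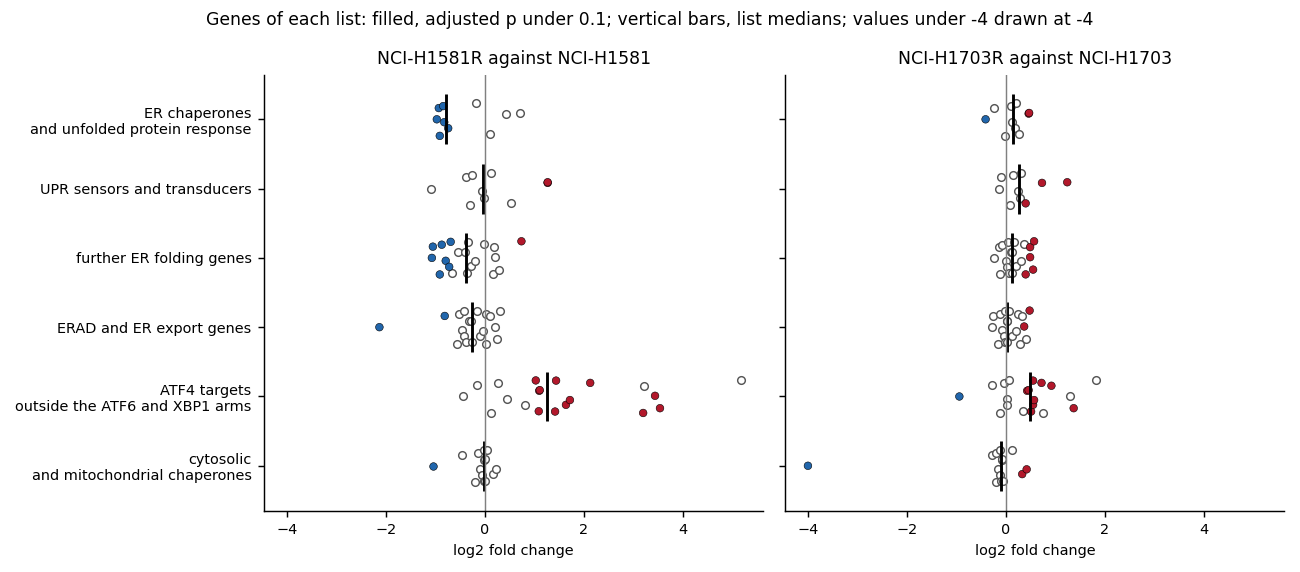
Log2 fold change of every tested gene of the 6 lists (x axis; 1 point per gene, filled red or blue where adjusted p is under 0.1) in NCI-H1581R on the left and NCI-H1703R on the right, with bars at the list medians. In NCI-H1581R the bar of the 10 ER genes is at -0.78 and that of the ATF4 targets at 1.26; in NCI-H1703R they are at 0.15 and 0.49. HSPA1B, at 0 counts in NCI-H1703R, is drawn at the edge.

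The genes whose pattern over the 8 libraries was most like that of HSPA5 were EMC1, COG4, GPAT4, WASHC5 and SSR1. Likeness was the root mean square difference in centred log2 CPM among 9827 genes of at least 10 CPM on average, and it ran from 0.0729 for EMC1 to 0.0911 for SSR1. Of the 10 genes themselves, HSP90B1 came closest to HSPA5, at place 273 with 0.204, then CRELD2 at place 296 with 0.207. PDIA4 (0.94) and EDEM1 (0.959) were the farthest of those compared, since they differ most between the lines. The 8 points share 2 cell lines, so the measure mixes the gap between lines with the change in each.

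The tested genes on either side of each gene were read as well, since position played no part in the choice of the 10. Around HSPA5 the 16 tested genes starting within 1 Mb had in NCI-H1581R a median log2 fold change of 0.10, with 2 called higher and 0 lower, beside -0.74 for HSPA5. Around HSP90B1, PDIA4, SDF2L1, CRELD2 and MANF the medians were 0.15, 0.24, 0.12, -0.29 and -0.15, beside falls of the genes themselves by 0.82 to 0.97 on the log2 scale. HERPUD1 (chromosome 16) stood apart. Of its 30 neighbours 21 fell and 0 rose in NCI-H1581R, with a median of -0.79, while HERPUD1 was at -0.17.

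In NCI-H1703R 8 of the 32 neighbours of CRELD2 rose and 0 fell, with a median of 0.34 beside 0.27 for CRELD2. For MANF 8 of 27 rose and 1 fell, with a median of 0.36 beside 0.18, but the median was -0.01 within 2 Mb. The neighbours of EDEM1 were 4, of which 2 rose, with a median of 0.39 beside 0.47. Those of HERPUD1 had a median of -0.16 beside its own 0.46. Copy number was not analysed here.

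Processed pseudogene copies took few reads, with 0 to 7 counts in any library for those of HSPA5, HSP90B1 and XBP1. CRELD2 shares 168 of 5166 exon bases with ALG12 on the opposite strand, and EDEM1 shares 631 of 6737 with a long non-coding gene.

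The libraries were checked against cell type markers. At least 4 of 5 epithelial markers were above 3 counts in every library of each group, at low levels, and VIM was at 2850.0 to 6400.0 CPM. JCHAIN had at most 33 counts and MZB1 at most 4, so defining genes of plasma cells, which are rich in ER chaperones, were near 0. Of the 3 blood markers CD3E was at 0 in all libraries and PTPRC had at most 15 counts, the highest in NCI-H1581R, whereas CD68, a lysosomal protein abundant in macrophages, was at 87.0 CPM in NCI-H1581 and 16.7 in NCI-H1581R, and at 21.3 and 49.1 in NCI-H1703 and NCI-H1703R. Of the 2 endothelial markers CDH5 had at most 1 count and PECAM1 at most 18. The fibroblast marker PDGFRA was at 1260.0 CPM in NCI-H1703 and 1070.0 in NCI-H1703R, against 1.23 and 1.13 in NCI-H1581 and NCI-H1581R. Some line markers moved with resistance, such as TP63 (6.03 to 29.5 CPM) and NKX2-1 (14.3 to 49.8 CPM) in NCI-H1581R and KRT18 (64.9 to 2.68 CPM) and CDH2 (49.4 to 1.12 CPM) in NCI-H1703R. COL1A1, a secreted matrix protein folded in the ER, was at 59.2 CPM in NCI-H1581 and 27.5 in NCI-H1581R, and at 0.976 and 24.1 in NCI-H1703 and NCI-H1703R. The part of these differences in the results above was not tested. In bulk RNA a smaller share of cells that express a gene and less RNA per cell cannot be told apart.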

How the data were processed

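RNA of 8 libraries, 2 replicates each of NCI-H1581, NCI-H1581R, NCI-H1703 and NCI-H1703R, was used. Per the labels and the methods, the authors used cutadapt for trimming and Salmon with GRCh38 for quantification, and tximport collapsed transcript values per gene. Estimated counts, already in whole numbers and without normalisation, are what the authors deposited. The Salmon version, annotation and strandedness are not given in the sources used here. Totals were 33800389 to 40031710 counts, and a floor of 3 counts covers counting error only.

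Samples were grouped by the labels for line and variant. Gene symbols, positions and transcript lengths came from GENCODE v44 and promoter windows from RefSeq. For the 18203 genes with at least 10 counts in total, edgeR 4.0.16 in R 4.3.3 (TMM, quasi-likelihood test, two-sided, Benjamini-Hochberg over all genes) was fitted to the 4 libraries of each comparison and, for the interaction, to all 8. A gene was called when the adjusted p was under 0.1. A standard error is the absolute log2 fold change over the root of the F statistic. The script was tested on simulated data, which held no deviation shared by same-numbered replicates. The direction of changed genes was recovered there. The share of false calls lay above the nominal rate within each line and between the lines, most of all with DESeq2 and the replicate block. It lay under that rate for the interaction.

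Replicates differed by more than sampling noise in every group. Same-numbered replicates are repeats of the whole culture procedure, per the labels. Their deviations correlated across 9525 genes within each line (r = 0.22 in NCI-H1581 and NCI-H1581R, 0.44 in NCI-H1703 and NCI-H1703R). Between the lines r was -0.426 for NCI-H1581R and NCI-H1703R and -0.296 for NCI-H1581R and NCI-H1703. It was -0.073 for NCI-H1581 and NCI-H1703R and 0.0649 for NCI-H1581 and NCI-H1703. Beside such values between separate lines, 0.22 does not by itself show that the replicates of NCI-H1581 are paired. The main test carries no block. The fit with the replicate number as a block, which pairs these replicates within a line, is given beside the results it changes. P-values measure the spread between these cultures.

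The members and the gene lists were chosen with earlier results of these data known. The text names all 10 members with every library's value, 5 sensors and transducers (ERN1, ATF6, EIF2AK3, ATF4 and DDIT3), up to 3 called genes of largest change per other list and line, and the 5 genes most like HSPA5. CANX is named for its ERSE match. DERL3 was not matched and HSPA1A did not pass the filter. Markers, neighbours and genes called only with the block that are named otherwise were chosen after their values were seen. Alternatives were DESeq2 1.42.0, RLE normalisation, no filter, at least 10 counts in every library, a threshold of 0.05, GC and length offsets (splines with 5 degrees of freedom), 1 fit of all 8 libraries, the replicate block, a window of 2 Mb, the longest annotated transcript and leaving out each replicate. Bias-adjusted quasi-dispersions were added after seeing the data.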

Additional observations from a re-analysis of the deposited data

Results flagged for a closer look

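For 6 of the 10 genes the change with resistance in NCI-H1703 differed from that in NCI-H1581 by the interaction test (edgeR quasi-likelihood test over all 8 libraries, adjusted p under 0.1), and in each the change in NCI-H1703 was the higher one. The difference in log2 fold change was 1.10 for MANF, 1.07 for PDIA4, 1.07 for CRELD2, 0.88 for HSP90B1, 0.83 for HSPA5 and 0.61 for HERPUD1. In 5 of them it came with a fall in NCI-H1581R and no call in NCI-H1703R, although CRELD2 was called higher there with the replicate block (0.27, edgeR adjusted p = 0.00491). HERPUD1 differed from those, since it was called higher in NCI-H1703R and was not called in NCI-H1581R, where 21 of its 30 neighbours within 1 Mb fell. Groups of 2 are too small for a search for outlying libraries.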

How the results depend on the processing

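Having 2 replicates per group limits every call. Among settings other than leaving out a library, the 6 falls in NCI-H1581R kept their call in 56 of 60 values, the 3 calls in NCI-H1703R in 27 of 30, the 7 between the sensitive lines in 65 of 70 and the 6 interactions in 65 of 66, and no called gene changed direction in any fit. With a library left out these became 15 of 24, 4 of 12, 25 of 28 and 24 of 48. In those fits the lone library is assumed to vary like the others. The bias-adjusted quasi-dispersions, added after seeing the data, changed no call of the 10 genes, and on simulated data they made fewer false calls than the default. Calls gained only with the replicate block rest on that fit alone and are to be read with caution. False calls were more frequent with it on the simulated data. Those data held no deviation shared by same-numbered replicates, so they cannot settle how certain these calls are. Beyond the calls given in the report, the replicate block changed no other call of the 10 genes. The numbers of calls in NCI-H1703R were 5 with the replicate block and 6 with the block and GC and length offsets, and 1 in the single fit of all 8 libraries, where the spread is shared with NCI-H1581. A threshold of 0.05 left 2 calls in NCI-H1581R. Over all genes, the block raised the calls in NCI-H1703R from 2626 to 6468, and the single fit gave 1440.

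GC and length offsets moved several medians, with the same value with and without the block unless given: in NCI-H1581R the 10 genes to -0.57, sensors and transducers to -0.17 (-0.18 with the block), further ER folding genes to -0.52, ATF4 targets to 1.35 and cytosolic and mitochondrial chaperones to -0.14; between the sensitive lines the 10 genes to -0.20; and for the interaction the 10 genes to 0.80 under each of the 3 fits with offsets. They turned CRELD2 between the sensitive lines from -0.26 to 0.16 (0.17 with the block), neither value called. The stricter filter of 10 counts per library, under which fewer genes were tested, put the ATF4 targets at 1.09 in NCI-H1581R. The cause of the other shifts was not tested.

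Leaving out each library in turn changed the calls in both lines and for the interaction. In NCI-H1581R the medians ranged from -0.20 to 0.10 for sensors and transducers, -0.50 to -0.39 for further folding genes, 1.11 to 1.31 for ATF4 targets and -0.06 to -0.03 for the other chaperones. In NCI-H1703R they ranged from 0.21 to 0.35 for sensors and transducers, -0.05 to 0.15 for ERAD and export genes and 0.31 to 0.62 for ATF4 targets, and the interaction median of the 10 from 0.63 to 0.80. Uncalled values that crossed 0 were those of XBP1 in NCI-H1581R (-0.08 to 0.25) and between the sensitive lines (-0.15 to 0.06), of HSP90B1 (-0.09 to 0.08), DNAJB9 (-0.03 to 0.41), PDIA4 (-0.09 to 0.31) and MANF (-0.07 to 0.49) in NCI-H1703R, of EIF2AK3 in NCI-H1581R (-0.80 to 0.12), and of the interactions of EDEM1 (-0.50 to 0.01), ERN1 (-0.74 to 0.04) and DDIT3 (-0.37 to 0.36).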
